A study of Mus musculus with 11 samples.

Results

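The interferon response genes described here are Irf7, Isg15, Usp18, Ifit1, Ifit3, Oasl2, Bst2, Ifitm3 and Rtp4. They were taken from the gene table by symbol, and are 9 of its 22377 genes. The symbols are a known set of interferon-induced genes and were not picked by a cutoff on the values. The set was nonetheless chosen with earlier results of these data known. Counts over it below describe these libraries and are not independent of that choice. Levels are in CPM, reads scaled to the total of each library, and a mean of at least 1 CPM was needed for a gene to be tested. Of the 9 genes, 8 passed and Usp18 did not, and 16057 genes passed in all.

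Cap analysis of gene expression (CAGE), which reads the capped 5′ ends of RNA, was applied to whole hippocampus from male mice of the C57BL/6N strain. Photothrombosis (PT), a model of cortical stroke, was made in the left parietal region with rose bengal at 35 mg/kg (i.p.) and LED light of 565 nm and 200 mW over a circle 3.5 mm wide for 30 minutes. There were 11 libraries in 11 groups of 1, so no group had a replicate. A library was made for the infarcted side and for the non-infarcted side in each of 5 conditions, and a last library came from naive mice. The conditions were 7 d after PT with levetiracetam (PT 7 d LEV), 7 d after PT without it (PT 7 d), 1 m after PT with it (PT 1 m LEV), 1 m after PT without it (PT 1 m), and 2 m after PT with the drug withdrawn for 2 w (PT 2 m withdrawn). Levetiracetam, given against seizures, acts on the vesicle protein SV2A of synapses, and was drunk at 5 mg/mL. The series' text starts the drug 1 month after PT for 2 weeks and withdraws it for 1 week, which is shorter than the 2 w on the labels. Mice of 8 to 10 and of 65 to 85 weeks are named for the series, without saying which library is which. When the drug was given to the PT 7 d LEV mice, how many mice made up a library, whether both sides came from the same mice, and which side the naive tissue came from are not stated in these sources.

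Interferons are signalling proteins that cells release on sensing viral or misplaced nucleic acid. Type I interferons bind the receptor pair IFNAR1 and IFNAR2, which act through transcription factors such as STAT2 and IRF9. These recognise a DNA element, the interferon-stimulated response element, in the promoters of the genes they switch on. In brain, microglia, astrocytes, endothelium and neurons can all respond, and interferon-induced genes are known to be active in microglia after injury and with age.

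The element was looked for in RefSeq promoters of build GRCm38.p6, each with 250 bases before and 50 bases after the gene's start. These were on hand for 7 of the 9 genes, and not for Usp18 and Rtp4. The search was for the word GAAA repeated after a gap of 2 bases of any kind, or likewise its reverse complement TTTC, which covers both strands, and matches were allowed to overlap. At least 2 matches were found in 5 of the 7 promoters, against 0.225% of 32851 RefSeq promoters with 2 or more. For a single match the share was 3.44% of all promoters and 35.1% of 37 promoters of other interferon-induced genes. Irf7 and Oasl2 had no match in this window. Matches could be foreseen, since the genes are known to be interferon-induced and the word was chosen for this element. The stretches that hold the matches are shown because 5 of the 7 promoters share this feature, which was not itself used to choose the genes. The stretches run 5′ to 3′ on the gene's strand, with the matched letters in capitals.
Isg15: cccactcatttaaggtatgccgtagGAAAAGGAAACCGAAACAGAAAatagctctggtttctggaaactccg
Ifit1: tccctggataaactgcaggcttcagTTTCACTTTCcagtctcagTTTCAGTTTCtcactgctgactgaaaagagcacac
Ifit3: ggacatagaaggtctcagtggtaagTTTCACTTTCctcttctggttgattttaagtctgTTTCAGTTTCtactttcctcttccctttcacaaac
Bst2: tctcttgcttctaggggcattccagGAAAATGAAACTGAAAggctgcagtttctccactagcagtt
Ifitm3: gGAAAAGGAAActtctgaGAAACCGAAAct

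The Isg15 stretch is chr4:156200850-156200921 on the minus strand, from 103 to 32 bases before the start, and holds 3 overlapping matches. The Ifit1 stretch is chr19:34640760-34640838 on the plus strand, from 129 to 51 bases before the start. The Ifit3 stretch is chr19:34583348-34583441, also on the plus strand, from 181 to 88 bases before the start. Ifit1 and Ifit3 hold the same pair of matched words in the same order. The Bst2 stretch is chr8:71537562-71537627 on the minus strand, from 155 to 90 bases before the start, and its 2 matches overlap. The Ifitm3 stretch is chr7:141010714-141010743 on the minus strand, and lies after the start, at bases 2 to 31. A match describes these letters and does not show that a factor binds there.

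Library totals ran between 13382623 and 22377376 reads, with 93.01% to 96.08% of them in the table's genes. A count of 0 allows up to 3 reads, or 0.134 to 0.224 CPM, and none of the 9 genes was at 0 in any library. All 7 neuron markers were detected in each library, with a summed level of 5857 to 6848 CPM. Along the first principal component, which held 44.9% of the variance, the naive and 1 m libraries lay between −33.45 and −10.39 and the 7 d and 2 m libraries between 9.02 and 32.0. The labels name no batch for this split. Both sides of each condition lay in the same part, so each side difference below is set within it. The split does not follow the order of the times, and a comparison of 7 d with 1 m crosses it. Choroid plexus genes were low in PT 1 m infarcted (summed 55.8 CPM) and PT 1 m LEV non-infarcted (102.8 CPM), against 1260 to 4806 CPM in the other 9 libraries. Each 1 m pair thus holds a library with little of this tissue, on opposite sides.

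At 7 d after PT the interferon response genes were higher on the infarcted side, with and without levetiracetam, and later the difference was smaller or turned round. Over the 9 genes, the median difference in log2(CPM + 1), infarcted minus non-infarcted, was 0.88 at PT 7 d LEV, 0.84 at PT 7 d, 0.36 at PT 1 m LEV, −0.21 at PT 1 m and 0.22 at PT 2 m withdrawn. The same median over all tested genes was between −0.00485 and 0.038. In whole hippocampus, more responding cells and more RNA per cell cannot be told apart.

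A difference of at least 0.5 toward the infarcted side was seen for 7 of 9 genes at PT 7 d LEV, where 4.63% of tested genes had one, and for 7 of 9 at PT 7 d, where 4.19% had one. At PT 1 m LEV it was 3 of 9 genes (2.06% of tested genes), at PT 1 m 0 of 9 (1.62%), and at PT 2 m withdrawn 1 of 9 (3.61%). In 6 of the 9 genes both 7 d pairs passed this size, against 1.23% of tested genes. For 8 of the 9, all but Ifit3, the smaller of the 7 d differences was above each of the 3 later ones, against 11.6% of tested genes. The infarcted side was the higher one for 9 of 9 genes at PT 7 d LEV (52.2% of tested genes), 9 of 9 at PT 7 d (59.4%), 9 of 9 at PT 1 m LEV (48.7%), 3 of 9 at PT 1 m (56.7%) and 7 of 9 at PT 2 m withdrawn (54.8%). In both 7 d conditions together it was so for 9 of 9, against 31% of tested genes. Of the 9, only Irf7 and Ifit1 were higher on the infarcted side in 5 of 5 conditions, which 5.26% of tested genes were.

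**Figure D1:**
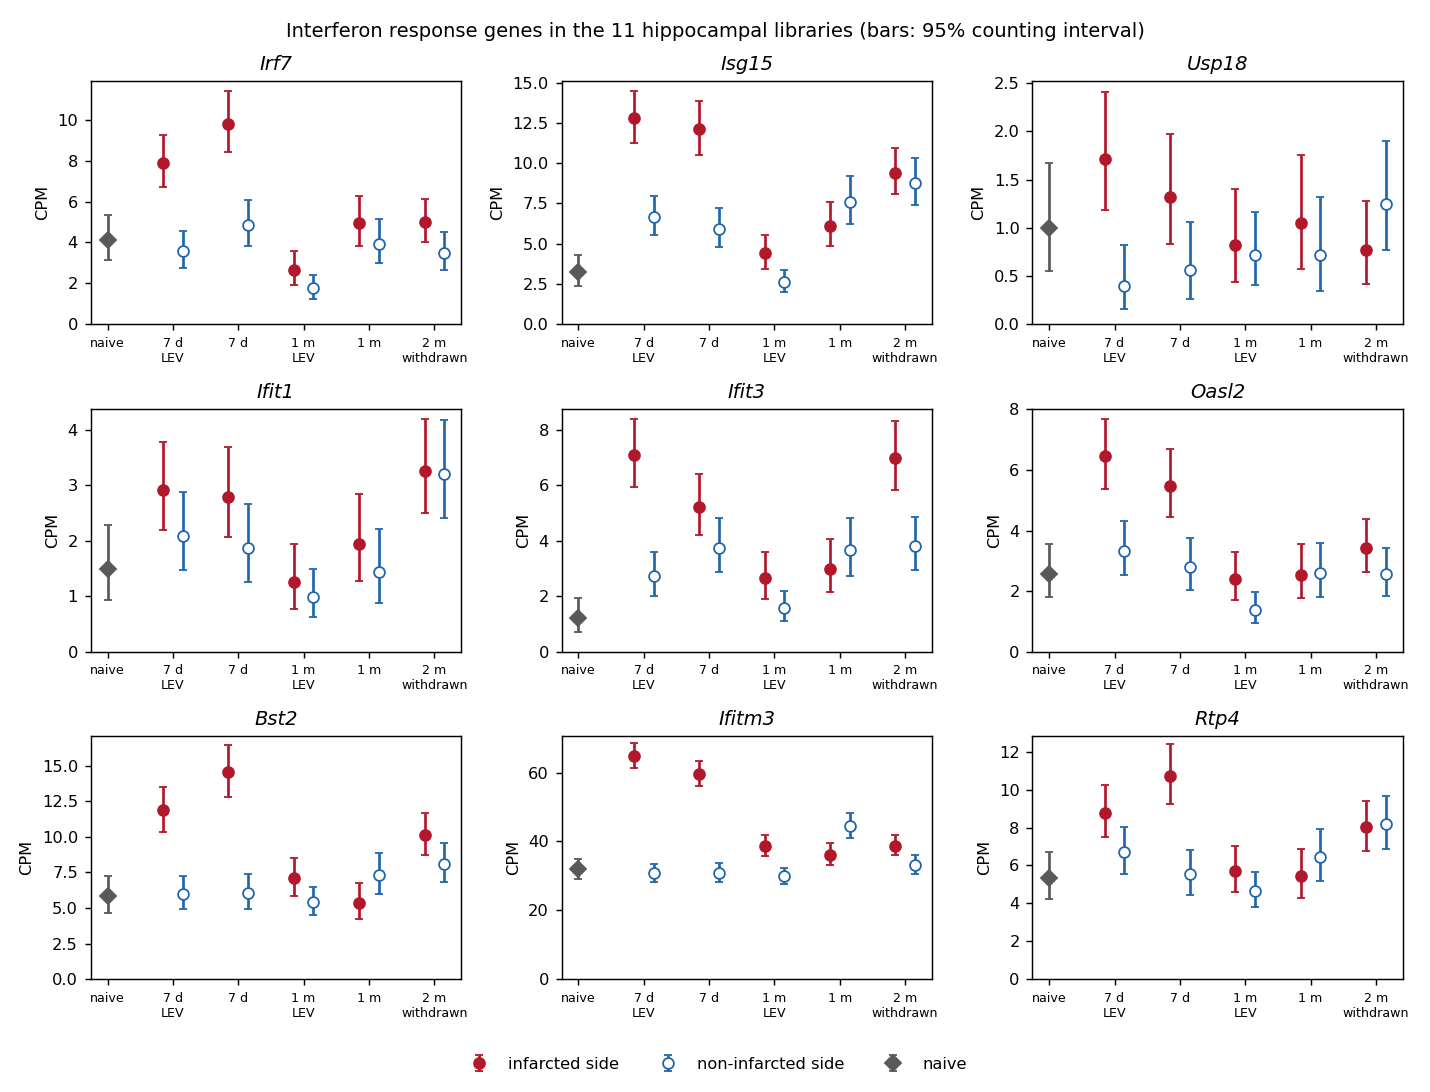
CPM of each of the 9 genes in the 11 libraries, with the naive library at the left and the infarcted side (filled) beside the non-infarcted side (open) in each condition; bars are 95% counting intervals of 1 library. In 7 genes the 7 d infarcted libraries are the highest points, and at 1 m and 2 m the sides lie closer together, Ifit3 at 2 m apart.

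Irf7 encodes the transcription factor that drives the production of type I interferon and is itself induced by it (chr7:141262706-141266481, minus strand). At 7 d it was at 7.91 CPM on the infarcted side against 3.56 CPM on the non-infarcted side with levetiracetam, and at 9.83 CPM against 4.86 CPM without it. These are 2.22-fold (95% counting interval 1.65 to 3.03) and 2.02-fold (1.54 to 2.68). The intervals here and below cover counting error only. Later the infarcted side had 2.64 CPM against 1.74 CPM at PT 1 m LEV, 4.93 CPM against 3.95 CPM at PT 1 m, and 5.01 CPM against 3.50 CPM at PT 2 m withdrawn, while the naive library had 4.14 CPM. So the 7 d infarcted libraries were above the other 9, and both PT 1 m LEV libraries were below naive. Irf7 overlaps Phrf1 on the opposite strand, and it is not stated whether the counting used strand.

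Isg15 encodes a ubiquitin-like protein that is joined to other proteins during the response (chr4:156199424-156200818, minus strand). It had 12.8 CPM on the infarcted side against 6.67 CPM on the other at PT 7 d LEV, which is 1.92-fold (1.54 to 2.41). At PT 7 d it had 12.1 CPM against 5.92 CPM, which is 2.05-fold (1.60 to 2.64). The pairs were 4.41 against 2.59 CPM at PT 1 m LEV, 6.13 against 7.60 CPM at PT 1 m and 9.43 against 8.78 CPM at PT 2 m withdrawn, infarcted side first. Naive had 3.21 CPM, so that every PT library except PT 1 m LEV non-infarcted was above it. At 2 m both sides were above naive and close to each other.

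Usp18 encodes the protease that takes ISG15 off proteins and also dampens signalling at the type I interferon receptor (chr6:121245906-121270917, plus strand). It was sparse, with 7 to 33 reads in a library. At PT 7 d LEV it had 33 reads on the infarcted side against 7 on the non-infarcted side (1.72 against 0.396 CPM), a ratio of 4.34 with an interval of 1.89 to 11.6. At PT 7 d it had 23 reads against 9 (1.31 against 0.561 CPM), a ratio of 2.34 with an interval of 1.05 to 5.76. At the later times the sides had 13 against 16 reads, 14 against 10, and 14 against 21, in PT 1 m LEV, PT 1 m and PT 2 m withdrawn, and all 3 intervals spanned 1. The naive library had 14 reads, and Usp18 overlaps the noncoding gene Gm44148 on the opposite strand.

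Ifit1 and Ifit3 lie in one cluster on chromosome 19 (chr19:34640871-34650009 and chr19:34583531-34588731, both plus strand). IFIT1 binds RNA whose cap lacks the marks of host mRNA, and in human cells IFIT3 binds and stabilises it. Near-identical copies exist in this family in mouse, such as Ifit3b beside Ifit3, so reads may be split among them. Ifit1 had 2.91 CPM on the infarcted side against 2.09 CPM at PT 7 d LEV and 2.80 against 1.87 CPM at PT 7 d, and both intervals spanned 1. It was at 1.26 against 0.983 CPM at PT 1 m LEV, 1.94 against 1.43 CPM at PT 1 m and 3.27 against 3.20 CPM at PT 2 m withdrawn, with 1.50 CPM in naive. Its highest libraries were thus those at 2 m, on both sides, and the sides were nearly equal there.

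Ifit3 was the gene that differed most between the 7 d conditions. It had 7.07 CPM on the infarcted side against 2.71 CPM at PT 7 d LEV, 2.61-fold (1.86 to 3.71), and 5.20 against 3.74 CPM at PT 7 d, 1.39-fold (0.993 to 1.96). The later pairs were 2.64 against 1.56 CPM at PT 1 m LEV, 2.99 against 3.66 CPM at PT 1 m and 6.98 against 3.80 CPM at PT 2 m withdrawn, which is 1.84-fold (1.35 to 2.52). Naive had 1.21 CPM (17 reads), and all 10 PT libraries were above it. The infarcted side at 2 m was about as high as at PT 7 d LEV. In Irf7, Isg15, Oasl2 and Ifitm3 the infarcted side was lower at 2 m, with counting intervals of the levels apart. In Usp18, Bst2 and Rtp4 it was lower with overlapping intervals, and in Ifit1 it was higher with overlapping intervals.

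Oasl2 encodes a 2′-5′-oligoadenylate synthetase-like protein of the RNA-sensing arm (chr5:114896936-114912234, plus strand). It had 6.45 CPM on the infarcted side against 3.33 CPM at PT 7 d LEV, 1.94-fold (1.41 to 2.69), and 5.49 against 2.80 CPM at PT 7 d, 1.96-fold (1.36 to 2.85). At PT 1 m LEV it had 2.39 against 1.39 CPM, at PT 1 m 2.54 against 2.58 CPM, at PT 2 m withdrawn 3.43 against 2.55 CPM, and in naive 2.57 CPM. Outside the 7 d infarcted libraries the highest value was the 3.43 CPM at 2 m, and the non-infarcted libraries at PT 1 m and 2 m were at the naive level.

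Bst2 and Ifitm3 encode membrane proteins that act against enveloped viruses, BST2 by holding new particles at the cell surface and IFITM3 by blocking fusion in endosomes. Bst2 (chr8:71534255-71537456, minus strand) had 11.9 CPM on the infarcted side against 5.99 CPM at PT 7 d LEV, 1.98-fold (1.57 to 2.52), and 14.6 against 6.04 CPM at PT 7 d, 2.41-fold (1.90 to 3.08). It had 7.11 against 5.41 CPM at PT 1 m LEV, 5.38 against 7.32 CPM at PT 1 m and 10.1 against 8.13 CPM at PT 2 m withdrawn, and 5.86 CPM in naive. At 7 d the non-infarcted side was at the naive level and the infarcted side about 2-fold above it (2.03-fold with levetiracetam and 2.49-fold without).

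Ifitm3 (chr7:141009586-141010770, minus strand) had the most reads of the 9 genes, 446 to 1246 in a library, and so the narrowest intervals. It had 64.8 CPM on the infarcted side against 30.7 CPM at PT 7 d LEV, 2.11-fold (1.91 to 2.34), and 59.7 against 30.8 CPM at PT 7 d, 1.94-fold (1.74 to 2.16). At PT 1 m LEV it had 38.7 against 29.9 CPM, 1.30-fold (1.16 to 1.45), and at PT 1 m 36.2 against 44.5 CPM, 0.813-fold (0.721 to 0.917). At PT 2 m withdrawn it had 38.8 against 33.2 CPM, 1.17-fold (1.05 to 1.31), and naive had 31.8 CPM. PT 1 m was the one condition in which the infarcted side was lower beyond counting error, and Ifitm3 the one gene of the 9 for which that held, as it did for 7.72% of tested genes. Its paralog Ifitm2 may share reads with it.

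Rtp4 encodes a chaperone that brings receptors to the cell surface and is induced by interferon (chr16:23520291-23614222, plus strand). It had 8.79 CPM on the infarcted side against 6.72 CPM at PT 7 d LEV, 1.31-fold (1.03 to 1.67), and 10.7 against 5.54 CPM at PT 7 d, 1.94-fold (1.50 to 2.52). The later pairs were 5.73 against 4.65 CPM at PT 1 m LEV, 5.45 against 6.46 CPM at PT 1 m and 8.01 against 8.19 CPM at PT 2 m withdrawn, with 5.36 CPM in naive. It was the only one of the 9 genes whose side difference was smaller with levetiracetam than without by at least 0.5 in log2 at 7 d. The annotated gene overlaps Masp1 on the opposite strand and Gm45338 on the same strand, so its reads may not all be its own.

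Counting intervals of the ratio lay above 1 for 8 of the 9 genes at PT 7 d LEV, against 15.9% of tested genes, and for 7 of 9 at PT 7 d, against 18.4%. They lay above 1 for 5 of 9 genes at PT 1 m LEV (13.5% of tested genes), 0 of 9 at PT 1 m (15%) and 3 of 9 at PT 2 m withdrawn (17%). In 7 of the 9 genes, all but Ifit1 and Ifit3, the 7 d infarcted libraries were the highest of the 11, which held for 4.14% of tested genes. Over all 5 conditions the infarcted and non-infarcted ranges overlapped in each gene.

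**Figure D2:**
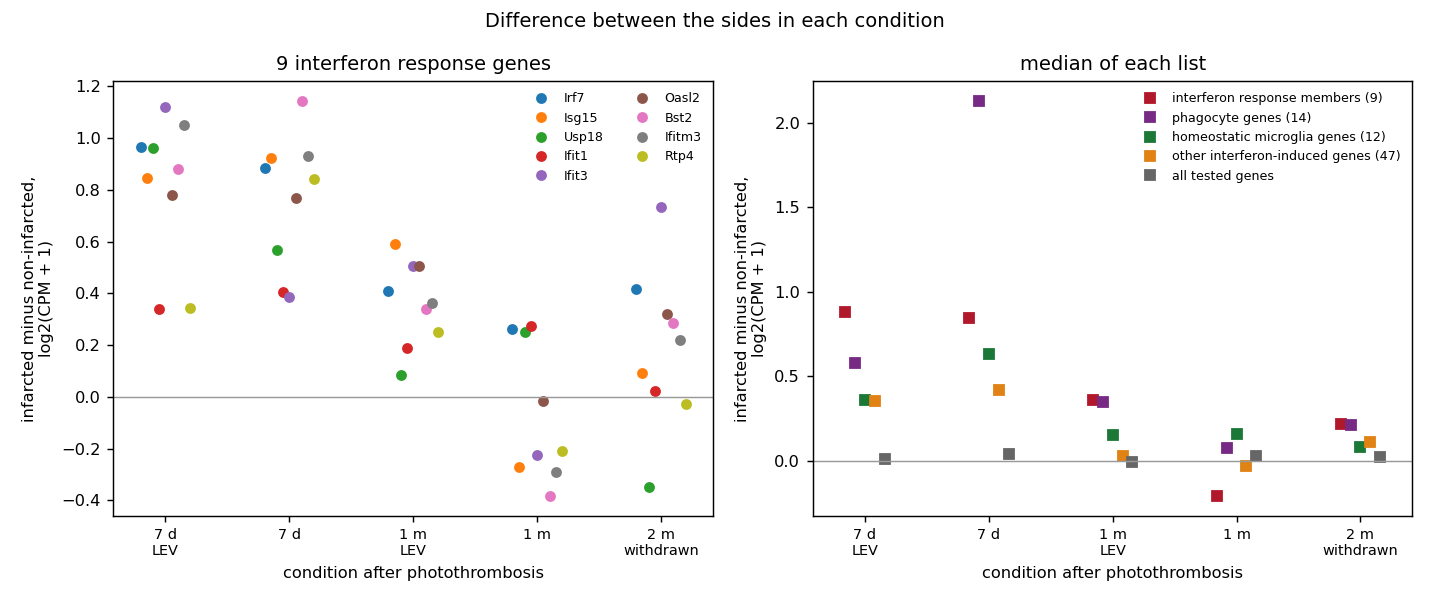
Difference between the sides in log2(CPM + 1), infarcted minus non-infarcted, in each condition, for each of the 9 genes (left) and as the median of gene lists (right). The 9 genes lie at 0.34 to 1.14 in both 7 d conditions and at −0.38 to 0.27 at PT 1 m, and the phagocyte median is 2.13 at PT 7 d against 0.58 at PT 7 d LEV.

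Over the 5 conditions, with the condition as a block, 8 of the 8 tested genes were higher on the infarcted side and none passed the test. The fitted log2 difference had a median of 0.45 and ran between 0.24 (Rtp4) and 0.59 (Irf7, SE 0.12), and limma's adjusted p ran between 0.339 (Irf7) and 0.695 (Rtp4). No share over all tested genes is set beside the 8 of 8, and 11 of 11 phagocyte and 12 of 12 homeostatic microglia genes were also higher. No gene of the 16057 passed in limma (0%), with 1221 at an unadjusted p under 0.05, and edgeR called 0 and DESeq2 15. Of the interferon response genes, 6 of the 8 had an unadjusted p under 0.05, against 6% of tested genes with a higher infarcted side and such a p. Ifitm3 averaged 47.6 ± 13.5 CPM on the infarcted side and 33.8 ± 6.1 CPM on the non-infarcted side (SD over 5 conditions), and was higher in 4 of 5 pairs. Irf7 averaged 6.07 ± 2.81 CPM and 3.52 ± 1.13 CPM on the same sides, and was higher in 5 of 5 pairs. Without the PT 1 m pair, limma called 50 genes, Ifitm3 among them (0.64, adjusted p = 0.0489, where its alternatives ran between 0.0489 and 1). The p-values of this fit rest on the spread of the 5 side differences, which come from unlike conditions and not from replicates. Any change of the side difference with time or drug is part of that spread. limma also draws each gene's spread toward that of the other tested genes, with 8.01 prior against 4 residual degrees of freedom. Nothing states that the libraries came from separate mice.

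How the side difference moved with time was fitted on the 5 differences, with a term for levetiracetam. It was larger at 7 d than later in 8 of 8 tested genes, by a median of 0.57, between 0.21 (Ifit1, SE 0.21) and 0.91 (Bst2, SE 0.39). No share over all tested genes is set beside the 8 of 8. The direction was not particular to these genes, as 11 of 11 phagocyte, 12 of 12 homeostatic microglia and 26 of 28 other interferon-induced genes had it. None of the 8 passed (limma's adjusted p 0.989 to 1) and none had an unadjusted p under 0.05, against 3.52% of tested genes that were larger at 7 d with such a p. With 2 residual degrees of freedom, Ifitm3 had 0.85 (SE 0.36), Isg15 0.69 (SE 0.36) and Rtp4 0.59 (SE 0.26). The sizes rested on single pairs: without the PT 7 d pair Rtp4 had 0.09 and Isg15 0.26, and without the PT 7 d LEV pair Ifit3 had 0.13 in place of 0.34. Over all genes limma called 0 (0%), with 806 at such a p. The order of the times is therefore a description of these 10 libraries.

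Levetiracetam was next compared at 7 d, where the drug-treated and untreated pairs give 1 difference each and no test. The side difference with the drug minus that without it had a median of 0.01 over the 9 genes, with 5 above 0 and 4 below, between −0.50 (Rtp4) and 0.73 (Ifit3). Over all tested genes the median was −0.04, and 56.3% were below 0. It was 0.08 for Irf7, −0.08 for Isg15, 0.01 for Oasl2, −0.26 for Bst2 and 0.12 for Ifitm3. Phagocyte genes are set beside them, without a test between the lists, and both lists were chosen with earlier results known. Of 11 tested genes of that list, 10 had a smaller difference with the drug (56.3% of tested genes) and 8 by at least 0.5 (3.93% of tested genes), and the median was −1.29. Of the 9 interferon response genes, 1 did, Rtp4.

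Among the phagocyte genes, Spp1, a secreted phosphoprotein of activated phagocytes, had 13.7 CPM on the infarcted side against 2.66 CPM at PT 7 d LEV, and 48.0 against 5.23 CPM at PT 7 d. Lyz2, a lysozyme of myeloid cells, had 26.0 against 9.27 CPM at PT 7 d LEV and 77.8 against 9.66 CPM at PT 7 d. Gpnmb, a glycoprotein of lipid-laden phagocytes, had 7.39 against 4.41 CPM at PT 7 d LEV and 43.1 against 4.61 CPM at PT 7 d. In these genes the infarcted library of PT 7 d LEV was the lower of the pair of 7 d infarcted libraries. Among the interferon response genes it was the higher for Isg15, Ifit1, Ifit3, Oasl2, Ifitm3 and Usp18. It was the lower for Irf7 (7.91 against 9.83 CPM), Bst2 (11.9 against 14.6 CPM) and Rtp4 (8.79 against 10.7 CPM).

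Homeostatic microglia genes had a smaller difference with the drug in 12 of 12 tested, against 56.3% of tested genes, with a median of −0.44. Their summed level was 527.1 CPM on the infarcted side against 410.1 CPM at PT 7 d LEV, 1.29-fold, and 828.1 against 421.0 CPM at PT 7 d, 1.97-fold. The phagocyte sum was 1.65-fold at PT 7 d LEV and 3.61-fold at PT 7 d, and the sum of the 9 interferon response genes, most of it Ifitm3, 2.00-fold and 1.96-fold. Other cell types also moved. Meningeal fibroblast genes (7 of 7 detected) summed to 252.9 CPM on the infarcted side against 123.1 CPM at PT 7 d LEV and 118.0 against 123.1 CPM at PT 7 d. Endothelial genes (9 of 9 detected) were 1.33-fold at PT 7 d LEV and 1.10-fold at PT 7 d, and astrocyte genes 1.13-fold and 1.27-fold. T cell, monocyte and neutrophil genes summed to 9.21 against 4.29 CPM and 11.2 against 6.91 CPM, with Ly6c2 at 0 on the infarcted side at PT 7 d LEV and Ccr2 at PT 7 d. The part of these cells in the side difference of the interferon response genes was not tested.

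**Figure D3:**
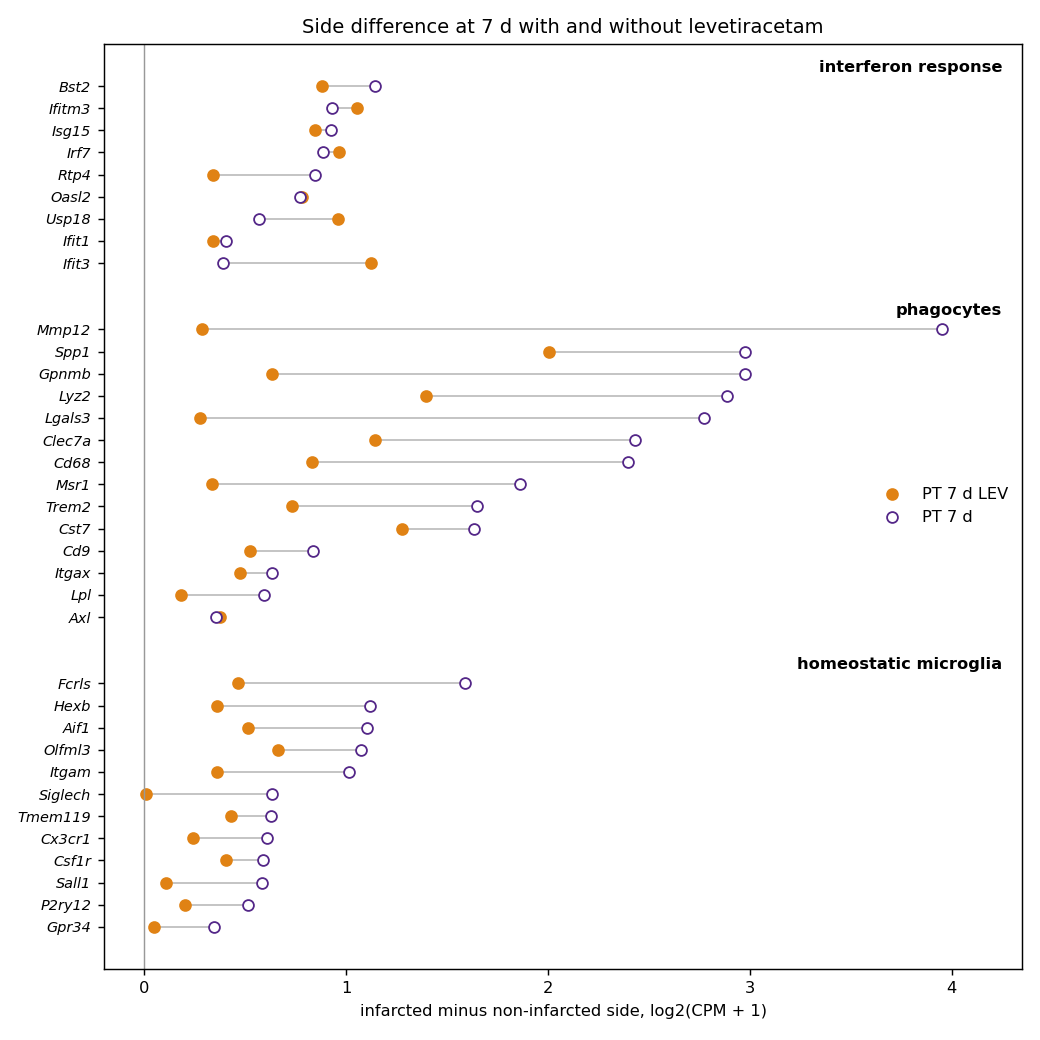
Difference between the sides at 7 d in log2(CPM + 1), infarcted minus non-infarcted, with levetiracetam (filled) and without (open), for each interferon response, phagocyte and homeostatic microglia gene in the table. With the drug the point is further right in 5 of 9 interferon response genes, while 12 of 12 microglia genes have the filled point to the left.

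Levetiracetam's term on the side difference was fitted over the 5 conditions, with a term for 7 d against later. PT 2 m withdrawn, where the drug had been given and withdrawn, counted there as without it. The term had a median of 0.16 in the 8 tested interferon response genes, and 6 were above 0. None passed (limma's adjusted p 0.906 to 0.999), nor did any tested gene (0%, with 847 at an unadjusted p under 0.05). The largest was Ifit3 at 0.46 (SE 0.45), and for Irf7 it was 0.07 (SE 0.44), so the fit does not show that the difference is alike with and without the drug. In the same fit the 11 phagocyte genes had a median of −0.33 with 9 below 0, and none of them passed either (adjusted p 0.901 to 0.999). At 1 m the interferon response genes had a larger side difference with the drug than without it in 7 of 9, with a median of 0.53, against 41.2% of tested genes and a median of −0.05 over them. Choroid plexus genes stood at 17.3-fold between the sides at PT 1 m LEV and 0.0391-fold at PT 1 m, and meningeal fibroblast genes at 1.30-fold and 0.667-fold, both higher with the drug than without it, as in the 7 genes. The part of these tissues in the 1 m values was not tested. Without both 1 m pairs the fit between the sides called 0 genes, with 1319 at an unadjusted p under 0.05.

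Levels averaged over both sides were compared between times and with the drug. At 7 d they were higher than later in 8 of 8 tested genes, by a median of 0.37 in log2(CPM + 1), and none passed (limma's adjusted p 0.751 to 0.863), nor did any tested gene (893 at an unadjusted p under 0.05). No share over all tested genes is set beside the 8 of 8. Levels were also higher at 7 d in 11 of 11 phagocyte, 24 of 28 other interferon-induced and 8 of 12 homeostatic microglia genes tested. Irf7 (0.77, SE 0.18) and Oasl2 (0.66, SE 0.20) had an unadjusted p under 0.05, against 3.8% of tested genes. Without the PT 2 m withdrawn pair limma called 2537 genes, and Irf7, Isg15, Ifit3, Oasl2 and Bst2 among them, but 7 d and 1 m libraries then lie apart along the first component, and time and that split cannot be told apart. Within the set that holds 7 d and 2 m libraries, the median level was lower by 0.03 at PT 7 d LEV and by 0.05 at PT 7 d than at PT 2 m withdrawn, with 4 of 9 genes higher at 7 d in each.

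With levetiracetam the fitted level was lower in 8 of 8 tested genes, by a median of 0.28 in log2(CPM + 1), and none passed (limma's adjusted p 0.905 to 0.944), nor did any tested gene (279 at an unadjusted p under 0.05). Irf7, at −0.57 (SE 0.18), was the 1 gene with an unadjusted p under 0.05, against 0.909% of tested genes that were lower with such a p. At 1 m, 9 of 9 genes were lower at PT 1 m LEV than at PT 1 m, with a median of −0.32. At 7 d, 3 of 9 were lower at PT 7 d LEV than at PT 7 d, with a median of 0.04. No share over all tested genes is set beside these counts or the 8 of 8. The fitted level was also lower with levetiracetam in 11 of 11 phagocyte and 11 of 12 homeostatic microglia genes tested. It was lower in 21 of 28 other interferon-induced and 14 of 16 receptor and signalling genes as well. The direction was therefore not particular to the interferon response genes. Over all tested genes the median against naive at PT 1 m LEV was −0.0514 (infarcted) and −0.0352 (non-infarcted). At PT 1 m it was 0.0171 and −0.00267. Without the PT 1 m LEV pair the term for Isg15, for example, was 0.11.

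Against the naive library, 8 of 9 genes were higher by at least 0.5 in log2(CPM + 1) on the infarcted side at PT 7 d LEV, where 8.48% of tested genes were, and 8 of 9 at PT 7 d, where 9.33% were. On the non-infarcted side it was 2 of 9 at PT 7 d LEV (5.04% of tested genes) and 2 of 9 at PT 7 d (4.93%), Isg15 and Ifit3 both times. At PT 1 m LEV it was 1 of 9 on the infarcted side (4.64%) and 0 of 9 on the other (3.41%), where Irf7 and Oasl2 were lower than naive by at least 0.5 (6.57%). At PT 1 m it was 2 of 9 on the infarcted side (2.01%) and 2 of 9 on the other (1.9%), again Isg15 and Ifit3. At PT 2 m withdrawn 5 of 9 were higher on the infarcted side, where 15% of tested genes were, and 4 of 9 on the other, where 11.3% were. These share 1 naive library, and there is no test.

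**Figure D4:**
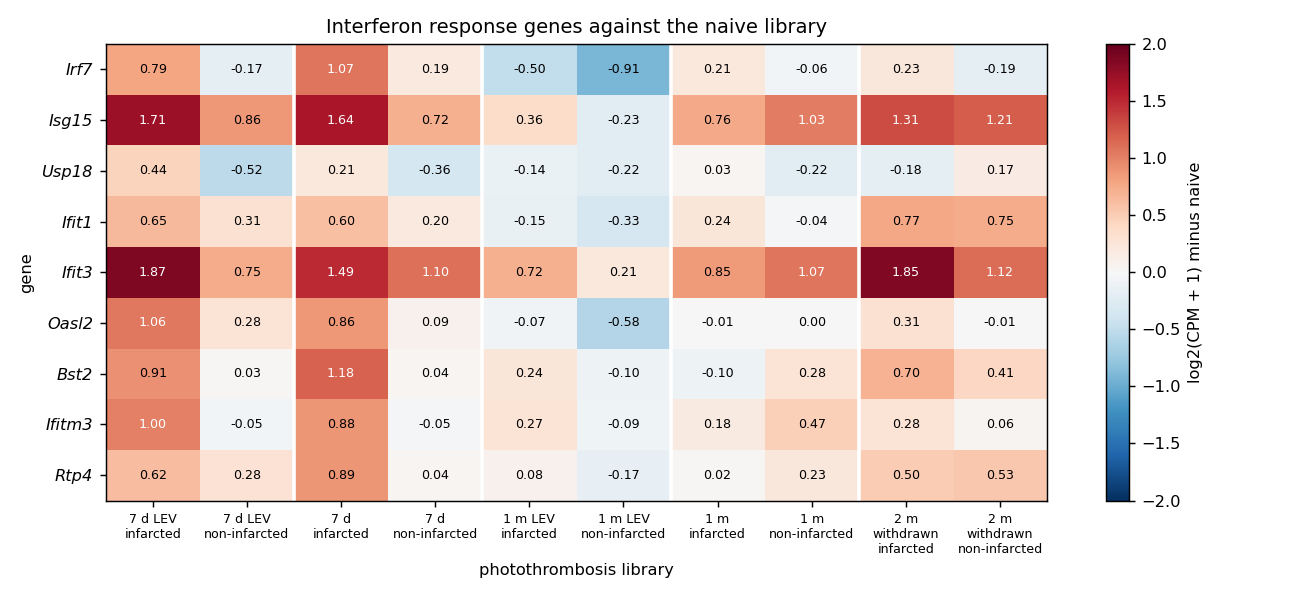
Difference of each PT library from the naive library in log2(CPM + 1) for the 9 genes, red for higher and blue for lower. Ifit3 is above naive in 10 of 10 libraries and Isg15 in 9 of 10, and the 7 d infarcted columns are red in all 9 genes.

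Across the 11 libraries the 9 genes varied alike, with Pearson's r of each with the mean of the other 8 between 0.603 (Usp18) and 0.922 (Isg15), a description in which all points share library and depth. Outside the set, the profiles most like their mean belonged to Neat1 (r = 0.973), a nuclear noncoding RNA, Dock8 (0.967), a regulator of leukocyte migration, and Lgals9 (0.962), a galectin induced by interferon. Fxyd5, Arpc1b, Aga, Stat6 and Enpp6 followed, with r between 0.928 and 0.961. Neat1 had 535.9 CPM on the infarcted side against 340.2 CPM at PT 7 d LEV, and 507.7 against 339.6 CPM at PT 7 d. Stat6, a transducer of interleukin-4 signalling, had 10.2 against 4.86 CPM and 9.71 against 5.05 CPM in the same pairs.

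Of the wider pathway, the 12 listed interferon ligand genes, Ifnb1 among them, were not analysed here. The receptors differed little between the sides at 7 d: Ifnar1 had differences of 0.19 at PT 7 d LEV and −0.11 at PT 7 d, and Ifnar2 of 0.23 and 0.25. Over the 5 conditions the fitted differences were 0.14 (Ifnar1, SE 0.06) and 0.16 (Ifnar2, SE 0.06). Both had an unadjusted p under 0.05, and neither passed (limma's adjusted p 0.643 and 0.532). Of the transducers, Stat2 had 0.16 at PT 7 d LEV and 0.20 at PT 7 d, and Irf9, its DNA-binding partner, 0.53 and 0.93. Irf9 was at 4.21 CPM on the infarcted side against 2.60 CPM at PT 7 d LEV, 4.0 against 1.62 CPM at PT 7 d, 2.39 against 2.19 CPM at PT 1 m LEV, 2.54 against 1.51 CPM at PT 1 m and 5.23 against 2.79 CPM at PT 2 m withdrawn, with 1.71 CPM in naive. It was higher on the infarcted side in all 5 pairs (fitted difference 0.55, SE 0.13, limma's adjusted p = 0.339). Of the 16 receptor and signalling genes tested, 2 had at least 0.5 at PT 7 d LEV and 3 at PT 7 d. Over all tested genes the shares were 4.63% and 4.19%. The largest among those with a mean of at least 5 CPM in the list was Ptpn6, a phosphatase of blood cell lineages that limits signalling, at 0.44 and 1.09. Il10rb followed at 0.59 and 0.50, Stat3 at 0.47 and 0.20 and Ifngr1, a receptor chain for interferon gamma, at 0.22 and 0.38.

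Of 22 sensors and interferon regulatory factors, 21 were higher on the infarcted side at PT 7 d LEV and 18 at PT 7 d. By at least 0.5 it was 4 and 9. Of the 17 that were tested, 16 and 13 were higher, and 2 and 7 by at least 0.5. Over all tested genes 52.2% and 59.4% were higher, and 4.63% and 4.19% by at least 0.5. Irf8, a factor of microglia and other myeloid cells, had 11.2 CPM on the infarcted side against 8.36 CPM at PT 7 d LEV and 18.4 against 7.04 CPM at PT 7 d, so its difference was 0.39 with the drug and 1.27 without, where Irf7 had 0.97 and 0.89. Myd88, an adaptor of Toll-like receptors, had 0.31 and 0.40, Irf3 0.13 and 0.13, and Irf2 0.18 and −0.01.

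Of 47 other interferon-induced genes, 42 were higher on the infarcted side at PT 7 d LEV and 43 at PT 7 d. By at least 0.5 it was 16 and 20. Of the 28 tested, 25 were higher in each 7 d condition, 11 of them by at least 0.5. Over all tested genes 52.2% and 59.4% were higher, and 4.63% and 4.19% by at least 0.5. The medians over the 47 genes were 0.35 and 0.42. At PT 1 m LEV, PT 1 m and PT 2 m withdrawn the medians were 0.03, −0.03 and 0.11. Ifi27l2a, a small interferon-induced membrane protein, had 49.1 CPM on the infarcted side against 13.4 CPM at PT 7 d LEV and 49.1 against 11.7 CPM at PT 7 d, 25.2 against 9.74 CPM at PT 1 m LEV and 16.2 against 20.9 CPM at PT 1 m, with 8.93 CPM in naive. Its infarcted libraries were nearly equal at 7 d, and its difference had the opposite sign at PT 1 m, as for Isg15, Bst2 and Ifitm3. Lgals9 had differences of 1.02 at PT 7 d LEV and 1.25 at PT 7 d, Lgals3bp 0.63 and 0.69, and Ifitm2 0.92 and 0.33. The list's side difference at 7 d was smaller with the drug than without in 16 of its 28 tested genes, 2 of them by at least 0.5, with a median of −0.04, which is near the 56.3%, 3.93% and −0.04 over all tested genes.

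GTPases known for induction by interferon gamma were higher on the infarcted side for 15 of 15 at PT 7 d LEV. At PT 7 d it was 13 of 15. Of the 9 tested, 9 and 7 were higher in these pairs, against 52.2% and 59.4% of tested genes. Irgm1, which acts on membranes of engulfed microbes, had 7.54 CPM on the infarcted side against 4.41 CPM and 7.20 against 4.24 CPM in these pairs. The ISG15 conjugation list had 1 of 5 genes at 0.5 or more at PT 7 d LEV and 0 of 5 at PT 7 d. In it Herc6, the ISG15 ligase of mouse, had 0.12 and 0.41, and Ube2e1 and Ube2e2 lay between −0.13 and 0.07. Of 7 chemokine genes in the table, 5 had at least 0.5 at each 7 d condition. None of the 7 reached a mean of 5 CPM, and only 3 were tested, all with at least 0.5 in both conditions. A difference of this size was seen in 4.63% of tested genes at PT 7 d LEV and 4.19% at PT 7 d. Over these lists no gene passed in any of the 5 fits. In the fit between the sides, 6% of all tested genes had an unadjusted p under 0.05 and a higher infarcted side. Among tested genes of the lists it was 7 of 16 receptor and signalling genes, 3 of 17 sensors and factors and 9 of 28 other induced genes. It was also 4 of 9 GTPases, 1 of 5 conjugation genes and 3 of 3 chemokines.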

How the data were processed

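The deposited table holds CPM per gene for 11 CAGE libraries, made by the authors from random-primed, cap-trapped cDNA, per the labels' protocols. The submitters' processing notes name build GRCm38, HISAT2 2.0.5, BWA 0.7.17 and DESeq2 1.20.0. What each tool did, the annotation release, the counting rule and whether duplicates were removed are not stated. All values (100%) were whole reads of their library's total within 0.01 read. Coordinates are from GENCODE M21, where 22335 of the 22377 identifiers were found without the version. No member had the same reads as another gene, while 624 genes did.

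Values were used as log2(CPM + 1), where a fold change understates the change of low genes. The 16057 genes with enough reads (mean 1 CPM or more) were tested with limma 3.58.1 in R 4.3.3 (lmFit, eBayes with a trend), Benjamini-Hochberg over all of them, threshold 0.05. In the fit between the sides the condition was the block, with 4 residual degrees of freedom. The 5 side differences, and the 5 condition means, were fitted with terms for 7 d and for levetiracetam, with 2 residual degrees of freedom. The prior degrees of freedom, from all tested genes, were 8.01 between the sides, 4.96 for the side differences and 5.4 for the condition means. In the levetiracetam term PT 2 m withdrawn counted as without the drug, although the drug had been given before the withdrawal. The limma fits were tested on simulated counts with planted changes, which lacked other differences between the conditions. The outcome is not reported here. Comparisons of 1 library with 1 have exact 95% counting intervals of the ratio and no test, and a log2 difference of 0.5 was the fold counted. edgeR 4.0.16 and DESeq2 1.42.0 on the recovered reads were alternatives.

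The members, lists, tests and alternatives were chosen with earlier results of these data known, and leaving out both 1 m pairs was added after seeing the data. All members were named. From each pathway list, up to 4 genes were named with the largest mean side difference at 7 d among those averaging 5 CPM or more, plus Ifnb1, Ifnar1, Ifnar2, Stat2 and Irf9. Another gene under this rule is not reported here. The likeness list is the 8 genes with the highest r and such a mean. The phagocyte genes named were chosen after their values were seen.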

Additional observations from a re-analysis of the deposited data

Results flagged for a closer look

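In 6 genes the sides differed in opposite directions at PT 1 m LEV and at PT 1 m, higher on the infarcted side with levetiracetam and lower without it. The lower value at PT 1 m was beyond counting error for Ifitm3, while the counting intervals of the other 5 spanned 1. The side difference with the drug minus that without it, in log2(CPM + 1), was 0.52 for Oasl2, 0.73 for Ifit3, 0.86 for Isg15, 0.72 for Bst2, 0.65 for Ifitm3 and 0.46 for Rtp4. Each rests on 1 pair against 1 pair, and the difference was not tested at 1 m alone.

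In 2 genes the sides differed in opposite directions at 7 d and at 2 m, higher on the infarcted side in both 7 d conditions and lower at PT 2 m withdrawn, where both counting intervals spanned 1 (0.288 to 1.26 for Usp18 and 0.770 to 1.24 for Rtp4), so that the lower value lay within counting error. The difference at PT 2 m withdrawn minus the mean of the 7 d conditions was −1.11 for Usp18, which had 7 to 33 reads in a library, and −0.62 for Rtp4. It was not tested.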

How the results depend on the processing

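The fit between the sides called 0 genes, and 0 with edgeR (1295 at an unadjusted p under 0.05, against 1221 with limma), but 15 with DESeq2. With a condition pair left out it called 0 to 50, the 50 without the PT 1 m pair. The level at 7 d against later called 0 genes and 11 to 2537 with a pair left out, and the level with levetiracetam 0 genes and 0 to 21. The cause was not tested. With a pseudocount of 5 the median side difference of the 9 genes was 0.593 at PT 7 d LEV and 0.578 at PT 7 d, which the larger constant shrinks by construction.

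The fitted difference between the sides, and its excess at 7 d, kept their sign in the 8 tested genes under each alternative run, but not their size. With a pair left out the excess at 7 d ran between 0.0898 and 0.961 for Rtp4, 0.258 and 1.01 for Isg15, 0.133 and 0.614 for Ifit3, 0.539 and 1.19 for Bst2, and 0.274 and 0.618 for Oasl2. The side difference of Rtp4 was 0.0897 without the PT 7 d pair, against 0.24 with all pairs, and that of Bst2 0.281 against 0.45. Other terms turned sign as follows, none past the threshold, and the cause was not tested. Levetiracetam's term on the side difference was −0.00575 for Irf7 with a pseudocount of 5, and with 0.5 it was 0.00256 for Ifit1 and 0.00133 for Rtp4. With 1 term in the fit it was 0.0302 for Ifit1 and 0.0947 for Rtp4. With a pair left out it ran between −0.0754 and 0.050 for Ifit1, −0.0752 and 0.679 for Isg15, −0.265 and 0.388 for Bst2, and −0.501 and 0.370 for Rtp4. The level at 7 d ran between −0.0285 and 0.717 for Ifit1 with a pair left out, and on the non-infarcted side alone was −0.122 for Bst2 and −0.159 for Ifitm3. With a pair left out, the level with levetiracetam ran between −0.402 and 0.194 for Oasl2, −0.670 and 0.0750 for Ifit1, −0.757 and 0.0148 for Ifit3, −1.01 and 0.111 for Isg15, and −0.153 and 0.0568 for Ifitm3. Each of these 5 was above 0 without the PT 1 m LEV pair, and Ifitm3 also on the infarcted side alone (0.0768).

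The labels give no replicate numbers, and the fit between the sides was paired by condition. With no replicate block in place of this pairing it also called 0 genes, with 245 at an unadjusted p under 0.05 against 1221. Usp18 entered the fit only with no filter (0.30, SE 0.16, limma's adjusted p = 0.738). With 1 library a group, differences between libraries cannot be told apart from those between conditions.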
